A study of Homo sapiens with 18 samples.

Results

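The genes described here are 10 transcription factors and cofactors of the red cell lineage: GATA1, GATA2, TAL1, LMO2, LDB1, KLF1, NFE2, ZFPM1, BCL11A and MYB. They were listed by symbol and found by symbol, 10 of 55766 genes in the RNA count table. Of these, 9 had enough counts to be tested, among 13786 genes tested in all. BCL11A did not. All libraries came from K562, an established human leukaemia line with erythroid features, here carrying a B2M:tdTomato transgene, that is, a red fluorescent protein gene joined to B2M. This transgene was shared by all 3 groups. B2M codes for the invariant light chain of MHC class I and was the target of the silencing. In the TALE group it was silenced with TALE proteins and in the dCas9 group with catalytically dead Cas9, both of which bring a repressor to a chosen DNA site. The silenced cells had received 3 plasmids in equal molar amounts, each for another repressor (called ATR in the labels, and D3A-based for one of them), plus a guide RNA plasmid in the dCas9 group. The untreated group had received none that the labels name. Each group had 3 RNA-seq libraries and 3 MeDIP-seq libraries. MeDIP captures DNA fragments with an antibody against 5-methylcytosine. The time after treatment was not given in the sources used here, nor whether the 3 libraries of a group came from separate cultures, so p-values measure only the spread between these libraries.

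GATA1 and GATA2 bind GATA sites in DNA, and as precursors commit to the red cell lineage GATA1 takes over sites that GATA2 held. TAL1, a basic helix-loop-helix protein, joins GATA1 through the bridging proteins LMO2 and LDB1, and LDB1 can bring distant enhancers to promoters by pairing with itself. KLF1 binds CACCC boxes of globin and other red cell genes, NFE2 pairs with small MAF proteins at the globin control region, ZFPM1 (also called FOG1) binds GATA1 as a cofactor, BCL11A silences fetal globin, and MYB keeps progenitors dividing.

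The promoters are shown first, because DNA methylation acts on CpG sites and the promoters of these genes differ in how many they hold. The RefSeq promoter table (build GRCh38.p14) had 14 promoters for 8 of the 10 genes, each 300 bases long and found exactly once in GRCh37, the sequence of the hg19 build of the files. GATA1 and KLF1 had few CpG sites, 7 and 6 in 300 bases. GATA2 had 29, ZFPM1 47, MYB 35 and TAL1 30 at its upstream start, against a median of 14 over all 35116 promoters of the table. Printed below is the stretch before the start of each of 3 genes, 5′ to 3′ on the gene's strand, with CpG in capitals. They are GATA1 at chrX:48644748-48644947 (+ strand, up to its earliest annotated start), KLF1 at chr19:12998016-12998265 (− strand) and GATA2 at chr3:128212045-128212294 (− strand), all in GRCh37.
GATA1: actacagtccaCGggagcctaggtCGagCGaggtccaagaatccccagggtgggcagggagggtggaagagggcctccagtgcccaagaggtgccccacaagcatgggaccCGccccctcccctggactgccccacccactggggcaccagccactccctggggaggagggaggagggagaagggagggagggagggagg
KLF1: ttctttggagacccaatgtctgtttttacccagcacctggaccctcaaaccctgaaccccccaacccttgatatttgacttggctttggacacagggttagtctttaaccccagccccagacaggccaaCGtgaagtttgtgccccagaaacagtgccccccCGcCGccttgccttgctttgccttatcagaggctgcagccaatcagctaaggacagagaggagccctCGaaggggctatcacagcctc
GATA2: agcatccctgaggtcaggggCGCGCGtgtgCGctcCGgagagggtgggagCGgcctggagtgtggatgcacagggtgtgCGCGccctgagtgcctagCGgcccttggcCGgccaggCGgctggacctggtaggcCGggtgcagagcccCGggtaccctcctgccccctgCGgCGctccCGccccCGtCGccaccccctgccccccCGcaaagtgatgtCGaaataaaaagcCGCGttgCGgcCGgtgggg
CpG sites numbered 4, 4 and 24 in these printed stretches. GATA sites (AGATAA, with A or T as its first and A or G as its last base, on either strand) were found in the promoters of KLF1, which had 2, and of TAL1, which had 1, while 25% of all promoters in the table held one. In KLF1 they read TTATCA and CTATCA on the gene's strand, with their first bases at −66 and −13 from the start. A match of letters is a description of the window and not a measured binding site.

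As a check of the labels, the target was lower in both silenced groups. The B2M entry had 6.45 ± 0.487 CPM in untreated cells, 0.401 ± 0.126 in TALE cells and 0.264 ± 0.0688 in dCas9 cells (mean ± SD, n = 3), log2 fold changes of −3.94 and −4.56 against untreated. Raw counts of this entry were 79, 48 and 54 in untreated libraries. They were only 3, 7 and 4 in TALE and 2, 3 and 3 in dCas9, so these fold changes rest on few reads. The transgene had a separate entry, whose level is not given here. CPM here are counts scaled to the size of the library with TMM factors. RNA libraries held 8460076 to 12050554 counts, and MeDIP libraries 2529729 to 4492751 counts in the listed regions. Mitochondrial genes took 4.04% to 14.0% of RNA counts, the most in dCas9 replicate 2. Markers of the labelled line were abundant: HBG2, HBE1 and HBG1, the fetal and embryonic globins, had 3751, 1784 and 962 CPM on average, TFRC 776 and HEMGN 493. Among other lineages, the summed level per library was 50.3 to 69.1 CPM for 13 megakaryocyte genes, 15.1 to 28.7 for 12 myeloid genes and 21.9 to 37.4 for 12 lymphoid genes, and the platelet genes GP9 and GP1BB had 0 counts in all 9 libraries. TUBB1 and GP6 led the megakaryocyte list at 31.2 and 18.3 CPM, LYZ the myeloid list at 22.2, and CD3D the lymphoid list at 22.7. Of these lists 5, 1 and 2 genes had enough counts to be tested, and their smallest adjusted p in any contrast was 0.655 (ITGB3, TALE against untreated, in edgeR).

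Levels of different genes are compared per kilobase of merged exons, as CPM per kb, over all 9 libraries. NFE2 had the highest level, 95.2 ± 11.6 (SD, n = 9), which exceeded 96.9% of 11366 tested genes with a length. GATA1 followed at 65.2 ± 5.13, MYB at 50.3 ± 4.26, KLF1 at 41.8 ± 5.22, GATA2 at 36.4 ± 2.32 and LDB1 at 31.1 ± 2.75. LMO2 stood at 17.5 ± 3.13, TAL1 at 9.52 ± 1.05 and ZFPM1 at 4.09 ± 0.486, the last exceeding only 45.2% of those genes. The cofactor ZFPM1 thus had the lowest level of the 9 tested genes. This order was the same in the untreated, TALE and dCas9 means. Ranges over the 9 libraries overlapped between GATA1 and MYB, MYB and KLF1, KLF1 and GATA2, and GATA2 and LDB1, and for the other neighbours they did not. With the longest transcript as length, MYB stood above GATA1 (75.0 against 66.2) and GATA2 above KLF1 (47.1 against 41.8). The places of these 4 genes therefore depend on the gene model.

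**Figure D1:**
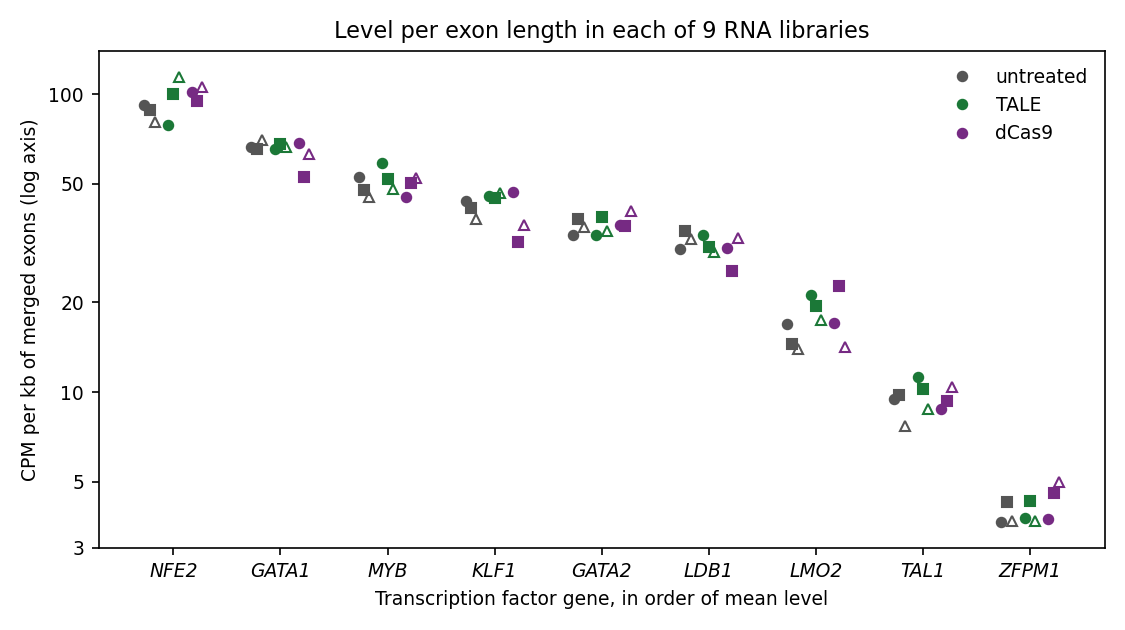
Level of each of 9 genes in each RNA library, as CPM per kb of merged exons on a log axis. Circles, squares and open triangles are replicates 1, 2 and 3, and colours are the groups. The range runs from a mean of 95.2 for NFE2 to 4.09 for ZFPM1, and the 3 groups lie within one another's range for most genes.

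No tested gene of the set passed the threshold in either silenced group. So few genes were called in all that 0 of 9 does not set these genes apart. At an edgeR adjusted p under 0.05, 0 of 9 genes were called between TALE and untreated cells, where 0.0218% of all tested genes were. Between dCas9 and untreated cells 0 of 9 were called, against 0.029% of all genes. Between TALE and dCas9 cells 0 of 9 were called, against 0% of all genes, and between the mean of both silenced groups and untreated cells 0 of 9, against 0.0363%. At an unadjusted p under 0.05, 1 of 9 passed in TALE cells, where 7.15% of all tested genes did, and 0 of 9 in dCas9 cells, where 5.93% did. Between the silencing methods 0 of 9 passed (6.38% of all genes), and 1 of 9 in the silenced groups together (6.35%). The gene was LMO2 both times. The median log2 fold change of the 9 genes was 0.12 for TALE and 0.07 for dCas9, while over all tested genes it was 0.00 in both. The contrasts share the untreated libraries. Every interval of a log2 fold change given below is a 95% interval of edgeR's fit. In these bulk samples, fewer cells with a transcript and less of it per cell cannot be told apart.

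**Figure D2:**
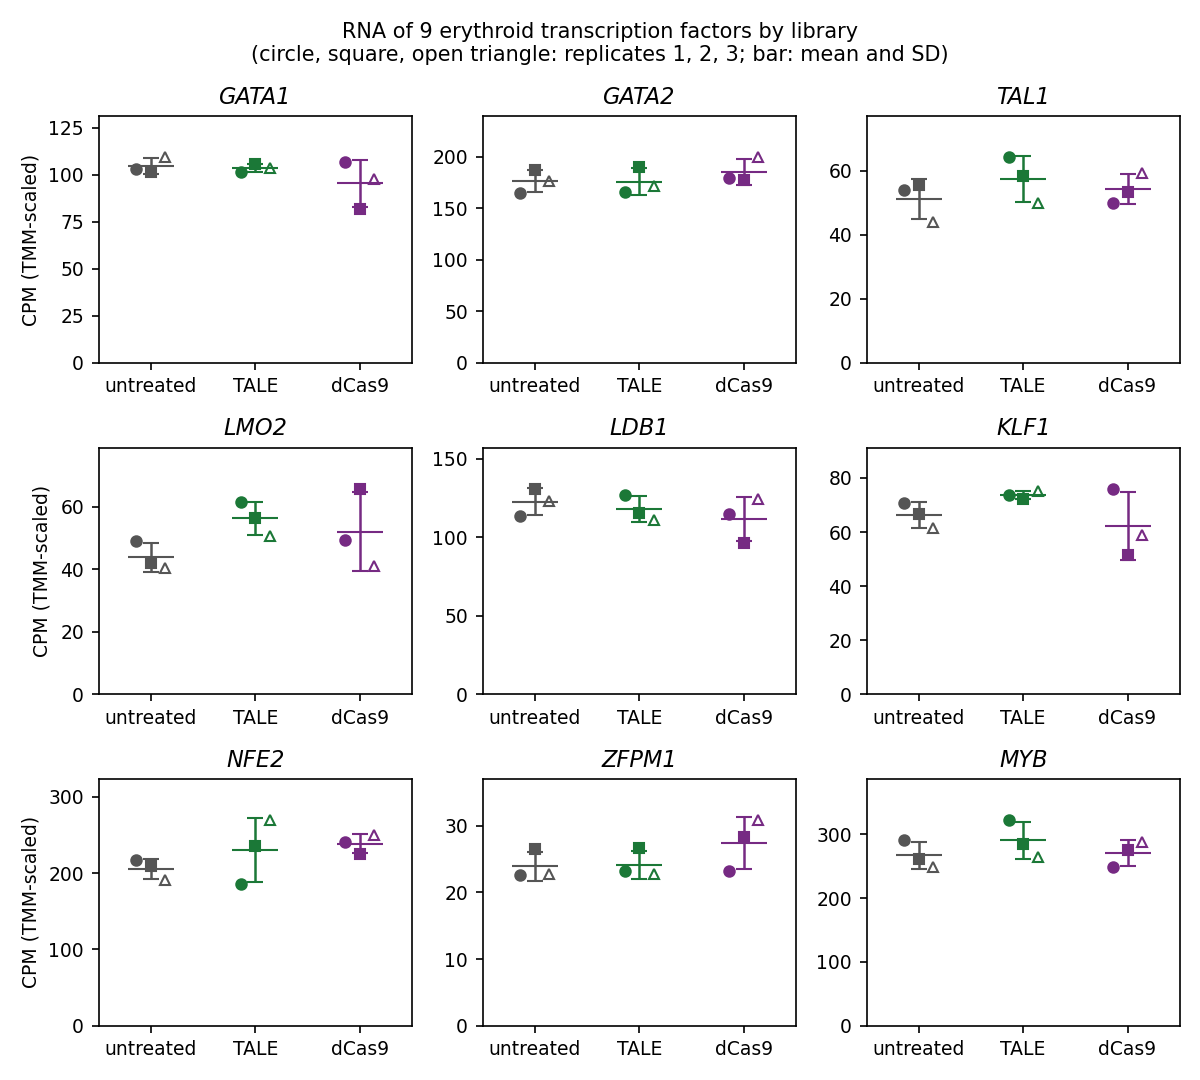
RNA level of 9 genes in each library, in TMM-scaled CPM, by group. Points are libraries and bars the mean and SD of 3. LMO2 and KLF1 are the 2 genes whose TALE libraries all lie above all untreated ones, and NFE2 the only one whose dCas9 libraries do.

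Of the DNA-binding GATA factors, GATA1 had 103, 102 and 109 CPM in the untreated libraries 1 to 3, 102, 106 and 103 in TALE and 107, 82.0 and 97.6 in dCas9. The dCas9 replicate 2 was the lowest library and the groups overlapped. Its log2 fold change was −0.02 ± 0.12 (SE) for TALE (adjusted p = 0.993 in edgeR) and −0.13 ± 0.12 for dCas9 (interval −0.38 to 0.11). GATA2, the factor of earlier progenitors, had 165, 187 and 177 CPM in untreated, 166, 190 and 171 in TALE and 179, 177 and 199 in dCas9. The 3 groups overlapped here too. GATA2 had the smallest spread within groups of the 9 genes, an SD of 0.0958 on the log2 scale. The median was 0.148 over 5550 tested genes within the CPM range of the 9 genes. That range reaches down to the 25.2 CPM of ZFPM1, against 179 for GATA2, so it is not a comparison at the level of GATA2. Its log2 fold change was 0.00 for TALE, with an interval of −0.24 to 0.24, and 0.07 for dCas9, with an interval of −0.17 to 0.31. The bounds of the TALE interval correspond to 0.844-fold and 1.18-fold the untreated level of GATA2.

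The ratio of GATA2 to GATA1 per kb, a pair that exchange places during red cell maturation, was chosen after the levels had been seen, so its tests are descriptive. It was 0.506, 0.581 and 0.511 in untreated, 0.515, 0.569 and 0.523 in TALE and 0.530, 0.682 and 0.645 in dCas9. The size of the ratio depends on the gene length used, here merged exons, which was the same for all libraries. The dCas9 replicates 2 and 3 had the highest ratios, and dCas9 replicate 1 lay within the untreated range. The means were 0.533 ± 0.0421, 0.536 ± 0.0293 and 0.619 ± 0.0793 (SD, n = 3). By exact two-sided permutation tests the p was 0.8 for TALE against untreated and 0.2 for dCas9 against untreated, and after Benjamini-Hochberg adjustment over 4 comparisons 0.8 and 0.4. Splits of 3 against 3 libraries cannot give a p below 0.1. Mitochondrial shares were 14.0% and 10.8% in dCas9 replicates 2 and 3, and 10.3% and 10.2% in untreated replicates 2 and 3. Whether that share, or RNA quality, bears on the ratio was not tested.

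TAL1, the helix-loop-helix partner of the complex, had 54.0, 55.6 and 43.9 CPM in untreated, 64.2, 58.4 and 49.9 in TALE and 50.04, 53.4 and 59.4 in dCas9. The groups overlapped, with untreated replicate 3 the lowest. Its log2 fold change was 0.17 for TALE (interval −0.10 to 0.44) and 0.08 for dCas9 (−0.19 to 0.35). The bridging protein gene LMO2 showed the largest difference of the 9 genes. LMO2 had 49.0, 41.9 and 40.5 CPM in untreated, 61.5, 56.4 and 50.8 in TALE, and 49.5, 65.7 and 40.9 in dCas9. All 3 TALE libraries lay above all untreated ones, while the dCas9 libraries spread across both groups. The LMO2 difference for TALE was 1.28-fold (interval 1.03 to 1.59, log2 fold change 0.36 ± 0.15), and it did not pass (adjusted p = 0.649 in edgeR). For dCas9 the log2 fold change of LMO2 was 0.24 ± 0.15 (adjusted p = 0.916 in edgeR), and for both silenced groups together 0.30 ± 0.13 (adjusted p = 0.737 in edgeR). LMO2 also had the largest spread within groups of the 9 tested genes, 0.228 on the log2 scale. LDB1, which binds LMO2 and pairs with itself, had 114, 131 and 123 CPM in untreated, 127, 116 and 111 in TALE and 115, 96.3 and 124 in dCas9. Its groups overlapped, and its log2 fold change was −0.06 for TALE (interval −0.31 to 0.20) and −0.13 for dCas9 (−0.39 to 0.12).

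KLF1 had 70.7, 66.7 and 61.4 CPM in untreated, 73.7, 72.3 and 75.0 in TALE and 76.0, 51.6 and 58.9 in dCas9. The TALE libraries lay close together and above all untreated ones, and the dCas9 libraries held both the highest and the lowest value. KLF1 was 1.11-fold the untreated level in TALE (interval 0.919 to 1.34, adjusted p = 0.839 in edgeR) and 0.938-fold in dCas9 (interval 0.775 to 1.14). TALE and dCas9 cells differed in KLF1 by a log2 fold change of 0.24 ± 0.13 (interval −0.03 to 0.52, adjusted p = 0.809 in edgeR). In dCas9 replicate 2, the library with the highest mitochondrial share, KLF1 was 0.37 below and LMO2 0.39 above its mean over the 9 libraries on the log2 scale. The part of that library's quality in these values was not tested. Without it the log2 fold change of dCas9 against untreated was 0.04 for LMO2 and 0.03 for KLF1, the latter with its sign changed. Without dCas9 replicate 1 the KLF1 difference between TALE and dCas9 was 0.42, with an adjusted p of 0.224 in edgeR.

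NFE2 had 217, 209 and 191 CPM in untreated, 186, 236 and 269 in TALE and 241, 225 and 249.8 in dCas9. All dCas9 libraries were above all untreated ones, while TALE replicate 1 was below them. NFE2 was 1.16-fold the untreated level in dCas9 (interval 0.954 to 1.41, log2 fold change 0.21 ± 0.13, adjusted p = 0.919 in edgeR) and 1.12-fold in TALE (interval 0.921 to 1.36). The cofactor gene ZFPM1 had 22.6, 26.4 and 22.8 CPM in untreated, 23.2, 26.6 and 22.7 in TALE and 23.2, 28.3 and 30.8 in dCas9. The highest 2 libraries of ZFPM1 were dCas9 replicates 3 and 2, and the groups overlapped. Its log2 fold change was 0.02 for TALE (interval −0.27 to 0.31) and 0.20 for dCas9 (−0.09 to 0.49).

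MYB, the progenitor factor, had 291, 261 and 249 CPM in untreated, 322, 285 and 265 in TALE and 249, 276 and 288 in dCas9. TALE replicate 1 was the highest library, and the groups overlapped. Its log2 fold change was 0.12 ± 0.12 for TALE and 0.02 ± 0.12 for dCas9 (interval −0.24 to 0.28). BCL11A was close to absent. Its raw counts were 0, 0 and 5 in untreated, 0, 0 and 1 in TALE and 0, 1 and 1 in dCas9, so 4 of 9 libraries had any. A count of 0 in these libraries allows up to 0.231 to 0.371 CPM, taking 3 counts as the limit and counting error only. At this depth no difference between groups was detectable for BCL11A, and no fold is given.

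By groups that do not overlap, 2 of 9 genes (LMO2 and KLF1) separated TALE from untreated libraries, both higher in TALE, where 12.5% of all tested genes separated in either direction. For dCas9 against untreated, 1 of 9 (NFE2, higher) separated, against 11.6% of all genes. Between TALE and dCas9, 0 of 9 separated, against 9.38%. With so few genes these counts are a description. The largest fold changes for the 9 tested genes lay between a log2 of −0.18 (ZFPM1, TALE against dCas9) and 0.36 (LMO2, TALE against untreated) over the 4 contrasts. The widest 95% interval bounds against untreated were −0.39 and 0.67, those of LDB1 in dCas9 and of LMO2 in TALE.

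**Figure D3:**
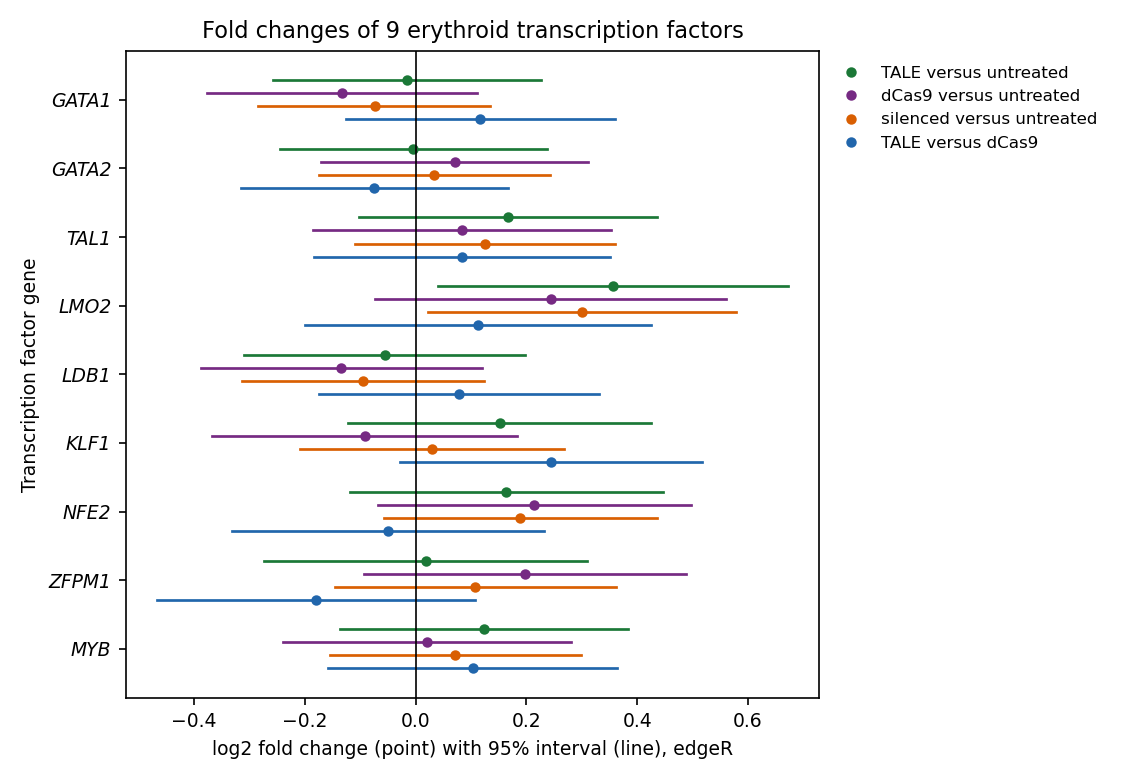
log2 fold changes of 9 genes (points) with 95% intervals (lines) from edgeR in 4 contrasts. The x axis is the log2 fold change and the vertical line is no difference. The LMO2 intervals for TALE and for both silenced groups together lie above 0 before adjustment for all genes tested, and all others cross it.

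The proteins these factors work with, and the genes they are known to regulate, were counted from fixed lists, and 0 genes of any list were called in any of the 4 contrasts. Of 34 partner and cofactor genes 30 were tested. The most abundant were CHD4 and HDAC1, subunits of the NuRD repressor complex, at 313 and 253 CPM, and CBFA2T3 (ETO2), a corepressor in the TAL1 complex, at 216. The median log2 fold change of the partners was 0.05 for TALE and 0.06 for dCas9. The smallest adjusted p of the list was 0.667 for TALE, at MAFK, a small MAF partner of NFE2, with 3.27 ± 0.342 CPM in untreated and 4.97 ± 1.34 in TALE. For dCas9 it was 0.670, at SPI1, which codes for PU.1, an antagonist of GATA1, with 33.8 ± 1.69 CPM in untreated and 44.3 ± 8.82 in dCas9. SPI1 also had the smallest value between TALE and dCas9, 0.745, and MAFK for both silenced groups together, 0.804. FLI1 and ERG, ETS factors of megakaryocytes and stem cells, were near 0, with means of 0.0966 and 0.172 CPM over 9 libraries.

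Of 30 red cell genes 28 were tested, with a median log2 fold change of 0.02 for TALE and 0.005 for dCas9. Unadjusted p under 0.05 occurred in 2 of 28 for TALE and 3 of 28 for dCas9, against 7.15% and 5.93% of all tested genes, and in 5 of 28 for the silenced groups together (4 higher, 1 lower), against 6.35%. The smallest adjusted p for dCas9 was 0.262 in edgeR at HBA1, an alpha globin gene, which had 204, 272 and 250.4 CPM in untreated, 236, 257 and 352 in TALE and 330.4, 455 and 354 in dCas9. The dCas9 libraries lay above all untreated ones, with replicate 2 the highest, and the log2 fold change was 0.65 ± 0.17. HBA1 and HBA2 have nearly identical sequences, as do HBG1 and HBG2, so how counts fell between them is uncertain. HBA1 also had the smallest adjusted p between TALE and dCas9 (0.745) and for both silenced groups together (0.525). For TALE it was ERMAP, a red cell surface protein, at 0.589, with 48.6 ± 1.90 CPM in untreated and 59.4 ± 6.09 in TALE. HBB, the adult beta globin, had 2.67 ± 0.350 CPM in untreated, 1.94 ± 0.810 in TALE and 1.19 ± 0.600 in dCas9. The fetal HBG2, which BCL11A silences in adult cells, had 3941 ± 258, 3490 ± 1151 and 3822 ± 941.

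Of 10 progenitor genes 7 were tested. MYC, a regulator of growth, CCND2, a cyclin, and HHEX, a homeobox factor, were the most abundant at 369, 188 and 89.0 CPM. The smallest adjusted p for TALE was 0.565 at MEIS1, a homeobox factor of stem cells. MEIS1 had 12.1, 13.5 and 13.1 CPM in untreated, 9.21, 10.2 and 8.43 in TALE and 10.2, 10.2 and 11.3 in dCas9. All 6 silenced libraries lay below the 3 untreated ones. Over all 13786 tested genes, 488 separated these libraries in either direction, and in this list 1 of 7 did. The log2 fold change of MEIS1 was −0.47 ± 0.16 for TALE and −0.28 ± 0.16 for dCas9 (adjusted p = 0.899 in edgeR), and for both together −0.37 ± 0.13 (adjusted p = 0.579 in edgeR). BCL2, a survival gene, had the smallest value between TALE and dCas9, 0.814.

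MeDIP signal at these genes is a second readout. The genes were listed by symbol, with earlier results of these data known. Regions of the count table were assigned to a gene if they overlapped it or the 5 kb upstream. In this way 46 regions fell to 9 of the 10 genes. ZFPM1 had 16, LMO2 and MYB 9 each, TAL1 and BCL11A 3 each, GATA2 and LDB1 2 each, GATA1 and NFE2 1 each, and KLF1 0. Each of the 46 regions had a peak called in at least 1 sample. The rule by which sites were listed was not given, so 0 regions does not show that DNA is unmethylated. The regions of these genes held a median of 2.80 CpG per 100 bases, against 2.81 for all regions. Within 2 kb of the gene start, 3 of 10 genes had a region (30%), against 43.69% of 20090 protein-coding genes. These were GATA2, LMO2 and BCL11A.

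The promoter-near region of GATA2 is printed in GRCh37, 5′ to 3′ on the gene's strand, with CpG in capitals, to show what the antibody could bind there. It is chr3:128213969-128214267, 1925 bases upstream of the start.
GATA2 region: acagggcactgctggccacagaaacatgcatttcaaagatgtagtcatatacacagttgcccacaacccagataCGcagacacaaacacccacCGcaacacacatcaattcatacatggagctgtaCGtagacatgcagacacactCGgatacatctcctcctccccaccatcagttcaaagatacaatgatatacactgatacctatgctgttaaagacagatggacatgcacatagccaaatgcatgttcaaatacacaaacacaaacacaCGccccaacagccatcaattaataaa
It holds 5 CpG sites, far fewer than the 29 in the 300 bases at the GATA2 start itself. The GATA2 region had a peak in 1 of 9 samples, a dCas9 library, and raw counts of 6, 5 and 9 in untreated, 8, 3 and 5 in TALE and 9, 10 and 1 in dCas9. It was too low to be tested. The BCL11A region, chr2:60779871-60780161 in intron 1, had a peak in 1 of 9 samples and was too low to be tested.

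Of the 46 regions 32 were tested, and 0 were called in any contrast. Over all 105652 tested regions 0% were called in TALE cells and 0.000947% in dCas9 cells relative to untreated ones. Between the silencing methods 0.000947% were called, and 0% for the silenced groups together. At an unadjusted p under 0.05 in the same order, 2, 3, 3 and 2 of 32 passed, against 4.74%, 4.69%, 4.47% and 4.88% of all regions. The adjusted p was 1 for every one of these regions. The median log2 fold change of the 32 regions was −0.08 for TALE and −0.08 for dCas9, against 0.00 over all regions.

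An exonic region of LMO2, chr11:33886282-33887359 over exon 5, had 3.99, 5.09 and 3.74 MeDIP CPM in untreated, 8.78, 4.71 and 8.24 in TALE and 7.11, 7.79 and 6.04 in dCas9. The dCas9 libraries lay above all untreated ones, and TALE replicate 2 did not. The log2 fold change for both silenced groups together was 0.75 ± 0.34 (interval 0.09 to 1.43, adjusted p = 1 in edgeR). In LDB1, the region chr10:103868811-103869307 over exons 9 and 10 had 7.37, 9.34 and 8.10 CPM in untreated, 4.62, 5.10 and 3.30 in TALE and 7.90, 8.05 and 7.34 in dCas9. All TALE libraries lay below the other 6, on raw counts of 10, 13 and 12. The log2 fold change of the LDB1 region was −0.94 ± 0.37 for TALE (interval −1.68 to −0.21, adjusted p = 1 in edgeR) and −0.51 for both silenced groups together (interval −1.11 to 0.09). For ZFPM1, with 15 tested regions, the smallest p for the silenced groups together was at chr16:88567515-88567959, in intron 3. That region had 2.46, 4.67 and 10.9 CPM in untreated, 5.54, 3.14 and 3.57 in TALE and 3.56, 1.82 and 3.02 in dCas9. Untreated replicate 3 was the highest and the other untreated libraries lay among the silenced ones, and the log2 fold change for both silenced groups was −0.87 (interval −1.67 to −0.07, adjusted p = 1 in edgeR). Against untreated cells in the dCas9 group, and between the silencing methods, another ZFPM1 region had a smaller p, chr16:88553735-88553969 in intron 2. It had 7.37, 5.09 and 4.67 CPM in untreated, 3.23, 4.71 and 8.79 in TALE and 3.16, 2.08 and 2.16 in dCas9. The dCas9 libraries were the lowest, with a log2 fold change of −1.23 for dCas9 against untreated (interval −2.16 to −0.29, adjusted p = 1 in edgeR) and 0.02 for TALE.

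The single region with the most MeDIP signal, without regard to its length, lay in BCL11A, the gene with almost no RNA. Per kb its mean was 22.8 CPM, and several other regions of these genes were higher. Among them were the ZFPM1 regions chr16:88584786-88584818, at 85.8 and untested, and chr16:88595199-88595468, at 40.3. The MYB region chr6:135523512-135523856 had 34.4. The BCL11A region chr2:60694160-60695219, in intron 3, had a peak in all 9 samples and 25.2, 28.4 and 24.9 CPM in untreated, 24.9, 25.1 and 32.4 in TALE and 18.6, 21.6 and 16.4 in dCas9. All dCas9 libraries lay below the other 6. This region holds 1 CpG in 1060 bases, and what the antibody or the alignment recovered there was not tested. Its log2 fold change was 0.09 for TALE (interval −0.29 to 0.47), −0.45 for dCas9 (interval −0.84 to −0.05) and 0.54 for TALE against dCas9 (interval 0.15 to 0.94), each with an adjusted p of 1 in edgeR. For both silenced groups together, which averages these, it was −0.18 (interval −0.51 to 0.16). In TAL1, the region chr1:47690267-47691859 over exon 3 held 113 CpG sites, 7.09 per 100 bases, and had peaks in 8 of 9 samples. It had 23.04, 18.7 and 14.3 CPM in untreated, 14.3, 16.9 and 14.6 in TALE and 11.5, 14.8 and 25.04 in dCas9. The groups overlapped, with a log2 fold change of −0.22 for both silenced groups together (interval −0.64 to 0.19).

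At MYB, GATA1 and NFE2 the intervals for both silenced groups together included no difference. The MYB region with the smallest p, chr6:135529157-135529364 in intron 15, had a log2 fold change of 0.34 (interval −0.33 to 1.02). The single region of GATA1, chrX:48638810-48640247, lies 4701 bases upstream of the annotated gene. It had 6.14, 6.79 and 6.23 CPM in untreated, 5.54, 8.24 and 6.32 in TALE and 5.53, 5.45 and 4.75 in dCas9. The dCas9 libraries lay below all untreated ones, and its log2 fold change for both silenced groups was −0.10 (interval −0.72 to 0.53). The single region of NFE2, chr12:54699755-54700020, lies 4956 bases upstream. It had 3.38, 7.21 and 3.74 CPM in untreated, 4.62, 4.32 and 1.92 in TALE and 5.14, 5.71 and 6.48 in dCas9, with a log2 fold change of −0.06 (interval −0.81 to 0.70).

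Summed over the regions of a gene, MeDIP signal was highest for ZFPM1, at 96.5, 96.8 and 107 CPM in untreated, 84.5, 103 and 106 in TALE and 94.8, 100.0 and 83.3 in dCas9, over 5859 covered bases. The summed signal of BCL11A was 27.3, 33.1 and 25.8 in untreated, 25.9, 27.5 and 32.7 in TALE and 18.96, 23.9 and 19.9 in dCas9. For LDB1 it was 15.1, 14.4 and 14.6 in untreated, 8.78, 11.8 and 8.24 in TALE and 12.6, 16.1 and 11.7 in dCas9. LDB1 sums were thus lower in all TALE libraries than in all untreated ones. BCL11A sums were lower in all dCas9 libraries than in all untreated ones. Neither gene had a called region. The sums include the LDB1 region over exons 9 and 10 and the BCL11A region in intron 3 described above, so they are not separate evidence. How often the sums of other genes separate was not counted. Among the 32 tested regions themselves, groups did not overlap in 6 for TALE against untreated, where 10.2% of all regions did not, in 5 for dCas9 against untreated (10.3%) and in 5 between TALE and dCas9 (9.97%).

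**Figure D4:**
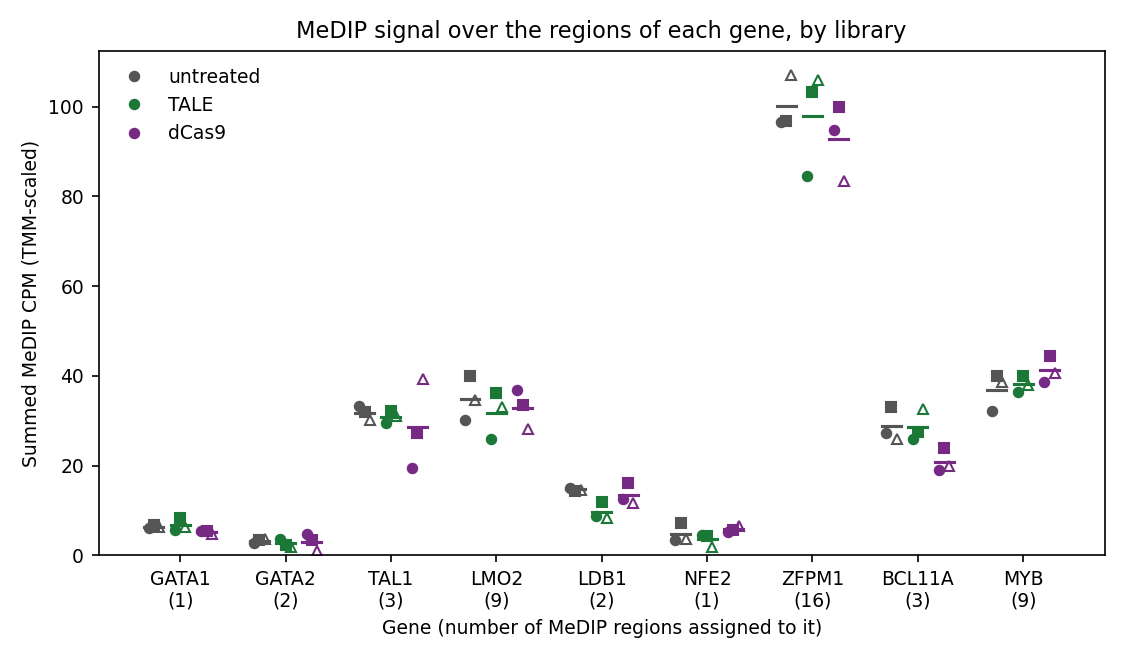
MeDIP CPM summed over all regions of each of 9 genes, by library, with the number of regions in brackets. Circles, squares and open triangles are replicates 1, 2 and 3, and the short line is the mean of a group. Most groups overlap, LDB1 is lower in TALE (8.24 to 11.8) than in untreated libraries (14.4 to 15.1), and BCL11A is lower in dCas9.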

How the data were processed

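RNA and MeDIP libraries of 3 groups, 3 libraries each per assay, were grouped by their titles. The members and gene lists were chosen with earlier results of these data known. The authors deposited raw counts per gene (RNA) and per region (MeDIP), plus broad peak lists per sample with a fold enrichment (a ratio) and −log10 p and q values. Those peak values are the authors', and here peaks were only counted. Per the submitters' processing notes, RNA reads were processed with STAR 2.3.0 and MeDIP reads with BWA 0.7.5, Picard, MACS2 and bedtools on hg19. The counter, annotation, use of strand and the rule for the regions were not given in the sources used here. Where genes overlap, or copies are nearly identical, counts may be split between them. Per the labels' protocols, RNA was amplified with a kit for degraded RNA, and MeDIP libraries were pooled before capture. Region starts were taken as counted from 0 and are printed from 1.

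The test was edgeR 4.0.16 (R 4.3.3), with its quasi-likelihood fit, TMM factors, filterByExpr with a minimum of 10 counts, 1 model of group means over 9 libraries per assay, with Benjamini-Hochberg adjustment over all 13786 genes or 105652 regions. Libraries of a group varied by 12.8% (RNA) and 19% (MeDIP) beyond counting noise, as edgeR's common dispersion gives it. Scripts were checked on simulated counts first. SE values come from the test statistic. Gene positions and lengths are from GENCODE on GRCh37. Named were the 10 members, in each list of partners and targets the 3 genes of highest CPM and the smallest adjusted p in each contrast (for other lineages, the leading genes and the smallest p over contrasts), markers at 0 counts, and regions near gene starts or with the smallest p of a gene, of which 1 region and 1 marker gene are not reported here. Values added for HBB, HBG2, FLI1, ERG, BCL11A's and TAL1's strong regions, further regions of ZFPM1 and MYB, and the GATA2 to GATA1 ratio were chosen after values were seen. Alternatives were upper-quartile factors, DESeq2 1.42.0, no filter, a stricter filter, a replicate block, each library left out, other upstream windows and another gene length.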

Additional observations from a re-analysis of the deposited data

How the results depend on the processing

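The count of called transcription factor genes was 0 in each RNA contrast under all alternatives run, and the count of called regions at these genes was 0 under all MeDIP alternatives. The smallest adjusted p in edgeR of any of the 9 genes under any alternative was 0.223 (LMO2, TALE against untreated, without TALE replicate 3). The log2 fold change of LMO2 lay between 0.29 and 0.45 for TALE, between 0.04 and 0.39 for dCas9 and between 0.20 and 0.39 for the silenced groups together. Signs of KLF1, MYB and TAL1 for dCas9, of GATA1, GATA2 and ZFPM1 for TALE, of GATA2 and KLF1 for the silenced groups together, and of LDB1, LMO2 and NFE2 between TALE and dCas9 changed under at least 1 alternative, all uncalled. Counts over all genes moved more. For TALE against untreated (3 genes) they were 9 with DESeq2, 1 with the stricter filter, 74 with no filter and 2 to 16 leaving out a library, the most without TALE replicate 3. For dCas9 against untreated (4) they were 27 with DESeq2, 2 with the stricter filter, 89 with no filter and 2 to 10 leaving out a library (2 when replicate 2 or 3 of the untreated or of the dCas9 group was dropped, and 7, 10 and 8 without TALE replicate 1, TALE replicate 3 and dCas9 replicate 1), and with the replicate block 2. For TALE against dCas9 (0) they were 77 with no filter and 0 to 21, above 0 without dCas9 replicate 1. For both silenced groups (5) they were 36 with DESeq2, 3 with the stricter filter, 79 with no filter and 2 to 33, with 33 without TALE replicate 3, 11 without dCas9 replicate 1, and 3 and 2 without untreated replicates 1 and 3. Regions called in all were 0 to 2 leaving out a library in the TALE contrast with untreated cells (0). In the dCas9 contrast (1) they were 2 with no filter, 0 with the replicate block and 0 to 3 leaving out a library. For TALE against dCas9 (1) they were 0 with no filter and 0 to 1, and for both silenced groups (0) 1 with no filter and 0 to 2. The cause was not tested. Deviations of same-numbered libraries correlated at −0.284 to 0.103 for RNA and −0.005 to 0.004 for MeDIP. Those of differently numbered libraries correlated at −0.136 to 0.249 and −0.008 to 0.009. With 3 libraries a group, such correlations cannot settle whether replicate numbers pair the libraries. With the longest transcript as length, 7 of 9 pairs of neighbouring genes kept their order, with BCL11A counted as the lowest gene. Regions assigned to these genes were 40 with no upstream window and 74 with 20 kb. Small differences of RNA, and MeDIP differences at regions of few counts, were not detectable with 3 libraries a group. The intervals are not adjusted for all genes tested, so they do not mark the limit of what could be called. HBA1 in dCas9 cells, with an interval of 0.30 to 1.00, was not called (adjusted p = 0.262 in edgeR).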
